A study of Xenopus tropicalis with 11 samples.

Results

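Histone H3 pull-down was compared with the pull-down by unspecific rabbit IgG in chromatin of the *X. tropicalis* cell line XTN-6, not crosslinked, using 4 of the 11 libraries of the series: H3 replicates 2 and 3, and IgG replicates 2 and 3. Libraries were chosen by their labels, and H3 was set against the IgG library of the same replicate number and described beside the input of that number; Cenp-a libraries serve only to place the centromeres, and no H4 library enters. The series was made to find the sequences that bind the centromeric histone Cenp-a, and here H3 and IgG, which serve it as references, are compared with each other. All 4 libraries are labelled wild type, NXR Nigerian strain and stage NF 20, with no treatment; the labels give both XTN-6 cells and whole tadpoles as material, and the counts of a ChIP experiment offer no marker to tell these apart. XTN-6 is an embryo-derived cell line, so all libraries come from 1 line. The labels call the replicates biological and the paper calls them technical, so their spread may not cover differences between cultures.

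Histone H3 is one of the core histones that DNA is wound around in nearly every nucleosome. After digestion by micrococcal nuclease (MNase), an antibody against H3 therefore draws from the whole pool of nucleosomes, while IgG on the same beads measures what sticks without a specific target. The input is a sample of the same digested chromatin, taken before the pull-down. At centromeres Cenp-a takes the place of H3 in part of the nucleosomes, which lie among nucleosomes that keep H3.

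The table holds 145051 bins of 10 kb, of which 144914 lie on chromosomes 1 to 10 of the v10 assembly (UCB_Xtro_10.0). Total counts were 64456099 for H3 and 4053600 for IgG in replicate 2, and 45198397 for H3 and 107881690 for IgG in replicate 3. The median bin held 381 and 275 counts of H3, and 24 and 639 counts of IgG. IgG replicate 2 was thus the shallow library, and single 10-kb bins of pair 2 carry a counting error of 0.30 on the log2 scale, against 0.10 in pair 3. Levels are given as CPM per 10-kb bin, that is counts scaled by the library's total on the chromosomes, and before ratios were taken in single bins 0.1 CPM was added.

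Few single 10-kb bins were called different between H3 and IgG. From the 5th to the 95th percentile of bins, log2 H3 over IgG ran from -0.36 to 0.35 in pair 3 and from -0.61 to 0.90 in pair 2. Its SD over bins was 0.22 in pair 3 and 0.48 in pair 2, above the counting errors of 0.10 and 0.30. Of 144710 bins tested, 2 were higher and 9 lower in H3 at an adjusted p under 0.05 by edgeR's quasi-likelihood test, that is 0.00138% and 0.00622%. None of them reached 2-fold in the fit. On simulated data the fit called only 4 of 50 bins changed 1.5-fold and 35 of 50 changed 2-fold. Differences of this size can thus go uncalled. The fit also called 9 unchanged bins there, so single calls can be false. Without adjustment, a p under 0.05 was found for 3321 bins with more H3 and 3689 with less (2.29% and 2.55%). Shares of this size are near those that a threshold of 0.05, split over both directions, gives without any difference. By simple ratios, 2 bins were at least 2-fold higher and 5 at least 2-fold lower in both pairs, and 0 bins reached 5-fold in both. The count of calls rests on the replicate block and on single libraries: without the block edgeR called 0 bins (1873 higher and 1990 lower had an unadjusted p under 0.05), and DESeq2 with the block called 6 higher and 120 lower. Without the block, leaving out H3 replicate 2 gave 24 higher and 110 lower, leaving out H3 replicate 3 gave 3 and 2, leaving out IgG replicate 2 gave 0 and 0 (2905 and 2495 at an unadjusted p under 0.05), and leaving out IgG replicate 3 gave 849 and 453.

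The highest called bin lay at chr7:88187366-88197365, inside *ptpn11b*, a gene for a cytoplasmic protein tyrosine phosphatase. H3 was at 27.9 CPM in replicate 2 and 38.9 in replicate 3, IgG at 13.6 and 22.9, and input at 25.2 and 23.0. Both H3 values exceeded both IgG values. The fitted log2 fold change was 0.86 (SE 0.15, n = 2 pairs, edgeR adjusted p = 0.00107). In replicate 2 H3 stood close to input and IgG below it, whereas in replicate 3 IgG equalled input and H3 stood above it.

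The other called higher bin, at chr1:97457857-97467856, overlaps *ubxn8*, known in human as an adaptor that holds the segregase VCP at the endoplasmic reticulum, and *ppp2cb*, a catalytic subunit of protein phosphatase 2A. H3 was at 24.96 and 39.58 CPM in replicates 2 and 3, IgG at 19.7 and 19.8, and input at 20.7 and 19.0. H3 was again above IgG in both pairs, by 0.34 and 0.99 on the log2 scale. The fit gave 0.76 (SE 0.15, edgeR adjusted p = 0.00747).

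The 9 called lower bins had H3 below IgG and below input in both replicates, as the plot of scaled counts in the called bins shows. The lowest, at chr1:31662456-31672455, contains no annotated gene. H3 was at 6.47 and 4.27 CPM in replicates 2 and 3, IgG at 11.6 and 8.64, and input at 8.32 and 9.63. The fitted log2 fold change was -0.95 (SE 0.20, edgeR adjusted p = 0.0247). A second called bin 20 kb further along held far more reads, with H3 at 105.9 and 74.6 CPM and IgG at 150.8 and 138.5, and its change was -0.71. The bin between them was not called, with H3 at 24.2 and 21.5 CPM, IgG at 25.2 and 27.7 and a change of -0.24 (SE 0.14, edgeR adjusted p = 1.0).

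**Figure D1:**
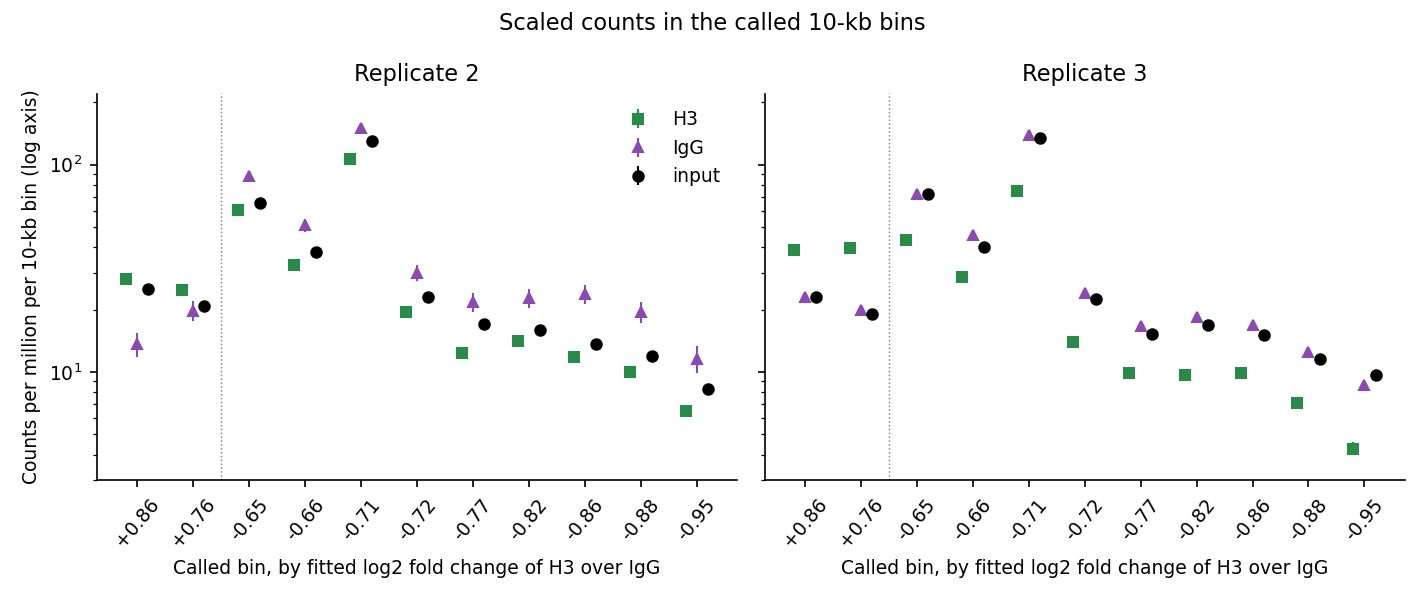
Scaled counts (CPM per 10-kb bin, log axis) of H3, IgG and input in the 11 called bins, replicate 2 on the left and replicate 3 on the right, ordered by the fitted log2 fold change; bars are the counting error. In the 2 bins left of the dotted line H3 stands above IgG, and in the 9 bins right of it H3 stands below both IgG and input in each replicate.

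A gene was annotated at 2 of the 9 called lower bins. At chr7:28791965-28801964, inside *cnnm2*, a gene that in human acts in magnesium transport, H3 was at 11.9 and 9.92 CPM and IgG at 23.7 and 16.8, a fitted log2 fold change of -0.86 (SE 0.16, edgeR adjusted p = 0.00348). At chr1:176114731-176124730, inside LOC100145473, H3 was at 32.6 and 28.6 CPM and IgG at 50.9 and 45.8, a change of -0.66. Neither locus had overlapping values of H3 and IgG. The 5 remaining bins are free of genes and lay at chr6:81766875-81776874 (-0.88), chr1:28581965-28591964 (-0.82), chr6:30312456-30322455 (-0.77), chr1:95337857-95347856 (-0.72) and chr7:106448839-106458838 (-0.65), with fitted log2 fold changes in brackets. All 11 called bins had more input than the median bin, from 1.51 to 22.2 times, and fell in the 10% of bins with the most input. They held 47 to 611 counts of IgG replicate 2, against 24 in the median bin. All lay over 5 Mb from a centromere and over 20 Mb from a chromosome end, as do 66.5% of all bins on the chromosomes. Reads of any mapping quality were counted, so reads of near-identical repeats can be placed in any copy, and the part of this in the called bins was not tested.

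Since only 2 bins were called higher, the bins with the next smallest p-values are given as well, which did not pass the test. At chr6:48843929-48853928, in *rbms3*, which encodes an RNA-binding protein, H3 was at 7.73 and 10.9 CPM and IgG at 4.44 and 5.97 (edgeR adjusted p = 0.140). The other 4 lay in *nrtn*, a ligand of the GDNF family of neurotrophic factors, in *mark4*, a kinase that regulates microtubules, in *cdc123*, an assembly factor of the translation initiation factor eIF2, and in a bin without a gene at chr4:77186384-77196383. Their fitted log2 fold changes ran from 0.68 to 0.97 and their edgeR adjusted p-values from 0.161 to 0.270. In these 4 bins IgG replicate 2 had only 7 to 34 counts.

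Over larger stretches the counting error shrinks, and a larger share of windows was called. In 100-kb windows, 162 of 14492 were higher and 395 lower in H3 (1.12% and 2.73%). In 1-Mb windows, 175 of 1448 were higher and 210 lower (12.1% and 14.5%) by edgeR's quasi-likelihood test with adjusted p-values. The changes were small, from -0.27 to 0.18 on the log2 scale among called 1-Mb windows. The calls differed between fits: at 1 Mb the fit without the replicate block called 2 higher and 14 lower, edgeR's TMM scaling 0 and 0 (173 and 313 at an unadjusted p under 0.05), and DESeq2 121 and 325. At 100 kb TMM scaling called 39 higher and 337 lower and DESeq2 4 and 43.

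The 2 pairs share no library, and their windows varied together. Across 1448 windows of 1 Mb, Pearson's r of log2 H3 over IgG between the pairs was 0.69 and Spearman's rho 0.71, and the sign was the same in 78.9% of windows. Across 14492 windows of 100 kb r was 0.35, and across 144914 bins of 10 kb it was 0.12. These are descriptions across genome positions, which share base composition, mappability and neighbours and are not replicates.

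**Figure D2:**
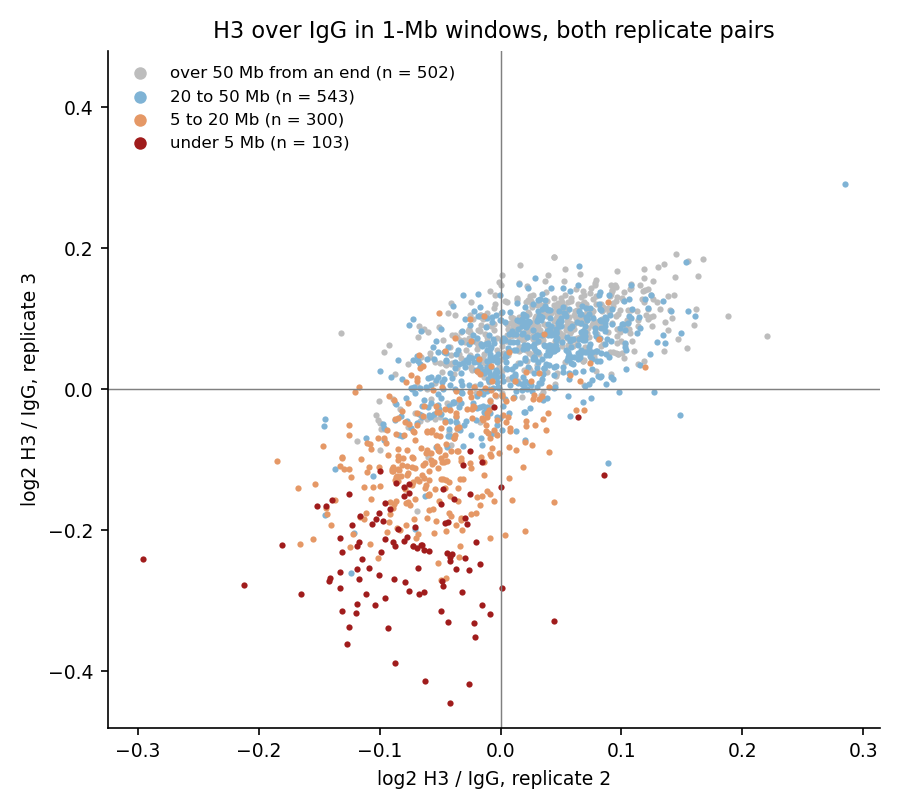
log2 H3 over IgG in 1-Mb windows, replicate 2 on the horizontal and replicate 3 on the vertical axis; each point is 1 of 1448 windows, coloured by distance from the nearest chromosome end. Windows under 5 Mb from an end lie below 0 on the vertical axis, windows over 50 Mb from an end mostly above it, and the single point at the upper right is the window of chromosome 9 with the high-input array.

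The windows that differed were arranged by distance from the chromosome ends. Of the 210 called lower windows, 201 lay within 20 Mb of an end, and of the 175 called higher windows 1 did, while 403 of all 1448 windows lie there. Within 1 Mb of an end 20 of 23 windows were called lower, with a median fitted log2 fold change of -0.22. From 5 to 10 Mb 63 of 100 were called lower (median -0.10), and from 20 to 30 Mb 4 of 192 were lower and 3 higher (median 0.0078). Beyond 50 Mb 123 of 502 windows were called higher and 2 lower (median 0.07).

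The lowest window was the first 1 Mb of chromosome 5, chr5:1-1000000, with H3 at 22.2 and 21.0 CPM per bin in replicates 2 and 3 and IgG at 27.2 and 24.9 (log2 fold change -0.27, SE 0.08, edgeR adjusted p = 0.0089). It holds 188 annotated genes, of which 161 are short rRNA genes. Next came the first 1 Mb of chromosome 8, chr8:1-1000000, with H3 at 7.02 and 5.61 CPM and IgG at 7.67 and 7.23 (-0.26, SE 0.04). The other 3 of the 5 lowest called windows also touch or approach an end, at chr8:145012276-146012275 (-0.25), chr7:133010803-133561293 (-0.25) and chr10:51003929-52003928 (-0.25). In the first of the windows the values of H3 and IgG did not overlap, and in the second H3 was below IgG within each pair by 0.13 and 0.36.

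The 5 highest called windows were all far from ends, between 45.0 and 88.0 Mb away. At chr6:91007366-92007365 H3 was at 5.83 and 6.47 CPM per bin and IgG at 5.18 and 5.68 (log2 fold change 0.18, SE 0.04, edgeR adjusted p = 7.6e-05). This SE and p rest on a variance pooled across windows. The edgeR adjusted p of this window was 0.055 without the replicate block and 0.080 with TMM factors. The others, at chr4:78006384-79006383, chr6:45003438-46003437, chr8:57004420-58004419 and chr2:92007366-93007856, had log2 fold changes from 0.16 to 0.18. In replicate 2 their log2 H3 over input ran from -0.02 to 0.05 and IgG over input from -0.18 to -0.10. In replicate 3 IgG over input ran from -0.04 to 0.01 and H3 over input from 0.14 to 0.19.

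This exchange of roles held along the whole gradient and is drawn in the plot by distance from the end. Within 1 Mb of an end log2 H3 over IgG was -0.09 in pair 2 and -0.35 in pair 3, from sums over 2000 bins. In replicate 2 IgG over input was 0.15 there and H3 over input 0.06. In replicate 3 IgG over input was 0.04 and H3 over input -0.31. Beyond 50 Mb the values of replicate 2 were -0.04 for IgG over input and -0.0076 for H3 over input, and those of replicate 3 were -0.0042 and 0.08. H3 was thus lower relative to IgG near the ends in both pairs, with IgG above input in replicate 2 and H3 below input in replicate 3.

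**Figure D3:**
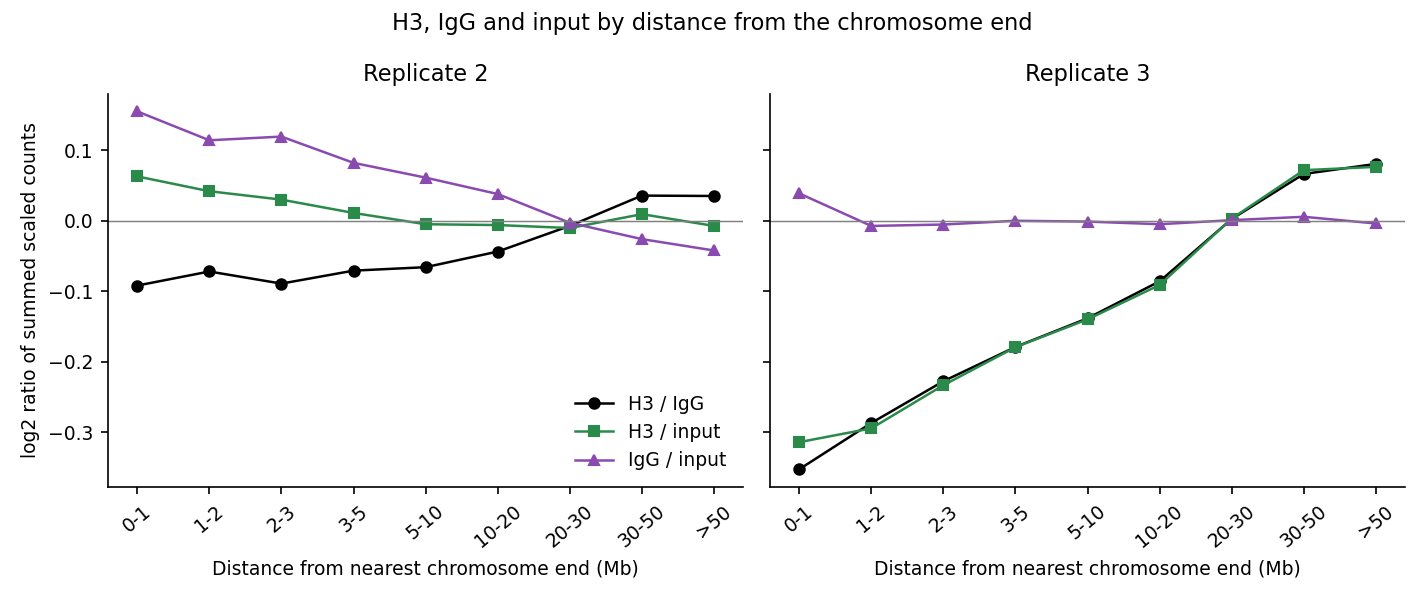
log2 ratio of summed scaled counts for H3 over IgG, H3 over input and IgG over input in 9 classes of distance from the nearest chromosome end (Mb, unequal steps), replicate 2 on the left and replicate 3 on the right. H3 over IgG rises from -0.09 to 0.03 in replicate 2, where IgG over input falls from 0.15 to -0.04, and from -0.35 to 0.08 in replicate 3, where H3 over input follows the same course.

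Comparisons without a shared library show the same split. Across 1448 windows of 1 Mb, IgG over input in replicate 2 and H3 over input in replicate 3 had r = -0.67. H3 over input in replicate 2 with H3 over input in replicate 3 had r = 0.06, and the same for IgG gave r = 0.17. H3 over input in replicate 2 with IgG over input in replicate 3, the remaining pair of ratios, had r = 0.38. Across these windows the SD of log2 H3 over input was 0.03 in replicate 2 and 0.11 in replicate 3, and that of IgG over input was 0.07 and 0.02, against counting errors of 0.01 to 0.03. For each antibody, the library with the smaller SD is the one for which the paper reports no broad peaks. Replicate and depth cannot be told apart here, since each replicate has 1 library of each kind.

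The gradient was present on every chromosome. Summed within 5 Mb of the ends, log2 H3 over IgG was below 0 on 10 of 10 chromosomes in both pairs, from -0.11 to -0.06 in pair 2 and from -0.31 to -0.19 in pair 3. Over 20 Mb from the ends it was above 0 on 9 of 10 chromosomes in pair 2, the exception being the short chromosome 10 (-0.01), and on 10 of 10 in pair 3, where it ran from 0.03 to 0.09. With TMM scaling the inner value was below 0 on 3 chromosomes in pair 2 and on 1 in pair 3, at -0.00028, and the outer value stayed below 0 on all 10 in both. The value rose from the outer over the middle (5 to 20 Mb) to the inner class on 9 chromosomes in pair 2, all but chromosome 3, and on 10 in pair 3. The 2 pairs allow no exact test with a p below 0.5 for such classes, so their values stand without one.

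Each end was also measured on its own. In the outermost 1 Mb, log2 H3 over IgG was below 0 at 20 of 20 ends in pair 3, from -0.45 to -0.24 with a median of -0.31. In pair 2 it was below 0 at 19 of 20 ends, from -0.30 to 0.0014 with a median of -0.11. The first end of chromosome 10 was at 0.0014 in pair 2 and -0.29 in pair 3. IgG over input was above 0 at 20 of 20 ends in replicate 2 and at 11 of 20 in replicate 3, and H3 over input was below 0 at 2 of 20 ends in replicate 2 and at 20 of 20 in replicate 3.

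**Figure D4:**
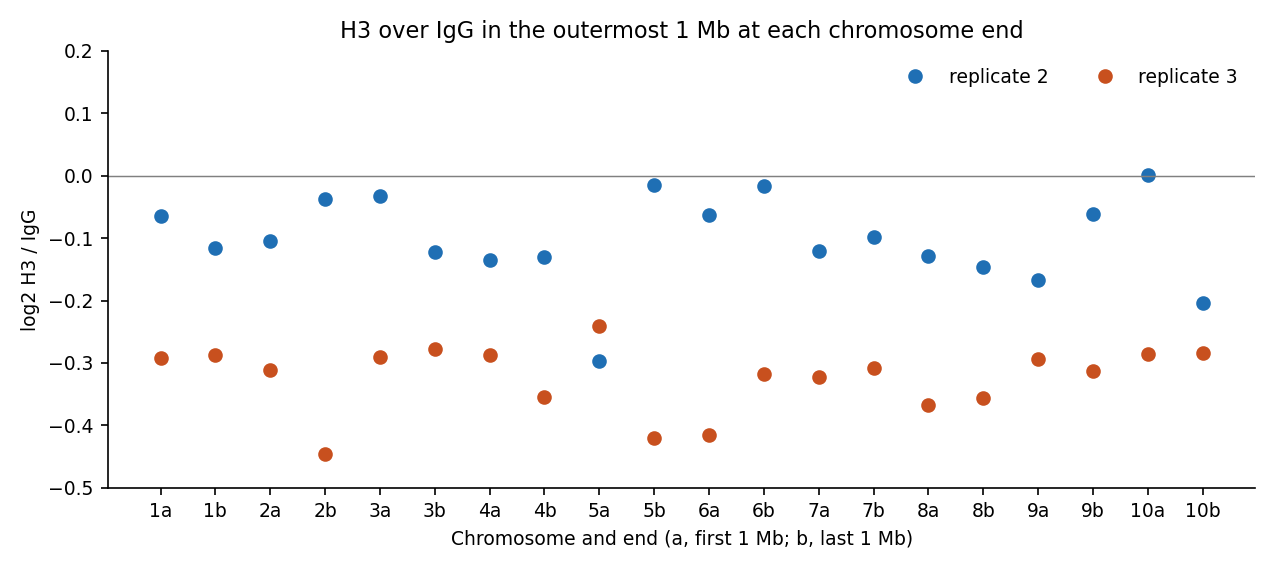
log2 H3 over IgG in the first (a) and last (b) 1 Mb of chromosomes 1 to 10, 1 point per replicate pair from 100 bins each. In pair 3 all 20 ends lie between -0.45 and -0.24, and in pair 2 19 of 20 lie below 0; the first end of chromosome 5 is the lowest in pair 2 and the highest in pair 3.

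Lower values near the ends than over 20 Mb away were also present in bins without a gene and in bins of middle input, though not always as a steady rise. In bins without a gene the outermost 1 Mb had -0.04 in pair 2 and -0.40 in pair 3, and bins over 20 Mb from an end had 0.02 and 0.04. Between them pair 2 was lower than at the end, at -0.07 from 1 to 5 Mb and -0.05 from 5 to 20 Mb. Pair 3 had -0.23 and -0.10 there. In bins whose input lay within 0.8 to 1.2 times the median, the same classes had -0.08 and -0.27 against 0.03 and 0.07. Without the bins of short rRNA genes the outermost 1 Mb had -0.07 and -0.36, and bins from 1 to 5 Mb had -0.08 and -0.22. These subsets were chosen after the gradient had been seen. Input itself was raised in the outermost 1 Mb, to a median of 1.15 times that of all bins, and base composition was not analysed.

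A smaller number of called windows broke the arrangement. The 9 called lower windows over 20 Mb from an end included chr4:39002947-40002946 (-0.20, edgeR adjusted p = 0.00079, input 2.72 times the median), chr1:31002456-32002455 (-0.17), which contains both called bins that lie 20 kb apart, and chr7:106008839-107008838 (-0.16), which contains another. Of these 9 windows 8 had more input than the median bin, against 448 of all 1045 windows at this distance. The called higher window within 20 Mb of an end was chr9:73005893-74005892 (0.11, edgeR adjusted p = 0.0149). These windows were picked out after their values were seen.

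Centromeres went the other way from the ends. The main Cenp-a clusters of the 10 chromosomes, 89 bins of 10 kb in all, had log2 H3 over IgG of 0.06 in pair 2 and 0.30 in pair 3. The interior of the chromosomes was at 0.03 and 0.07, so in pair 2 the clusters stood little above it. Summed over these bins H3 was at 23.1 and 27.7 CPM per bin in replicates 2 and 3, IgG at 22.1 and 22.5, and input at 21.0 and 21.1. H3 was above IgG and above input in both replicates. Without adjustment 26 of 89 bins had more H3 at p under 0.05 and 0 had less (29.2% against 2.29% of all bins tested), and none was called after adjustment. Cenp-a libraries entered only in placing the clusters. The clusters were placed by the ratio of Cenp-a to input, so the input libraries also took part in choosing these bins.

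H3 over input was above 0 at each of the 10 centromeres in both replicates. It ran from 0.07 to 0.22 in replicate 2 and from 0.22 to 0.65 in replicate 3. IgG over input ran from -0.01 to 0.12 in replicate 2 and from 0.04 to 0.15 in replicate 3. The same input libraries took part in placing the clusters, so ratios over input are not independent of that choice. H3 over IgG was above 0 at 10 of 10 in pair 3, from 0.18 to 0.51, and at 8 of 10 in pair 2, from -0.04 to 0.23. In pair 2 chromosomes 3 and 10 were above 0 by less than their counting error, at 0.029 (error 0.061) and 0.018 (error 0.075). Chromosome 5 was below 0 by less than its error, at -0.011 (error 0.050). The highest value in pair 3 was that of chromosome 1, at chr1:89217366-89237365, with H3 at 26.5 and 37.3 CPM per bin and IgG at 23.7 and 26.2. Both H3 values exceeded both IgG values there, but its 2 bins hold only 192 counts of IgG in replicate 2, a counting error of 0.11. The highest value in pair 2 was that of chromosome 8, at chr8:21351474-21521473, with H3 at 19.3 and 23.5 CPM and IgG at 16.4 and 18.3. The lowest in both pairs was the longest cluster, chr7:60264911-60514910, with H3 at 24.6 and 28.5 CPM and IgG at 25.3 and 25.2.

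The higher H3 ended with the Cenp-a clusters. In the 1000 bins within 0.5 Mb of them log2 H3 over IgG was -0.06 in pair 2 and -0.04 in pair 3, and in the 9000 bins from 0.5 to 5 Mb away it was -0.03 and -0.03. These flanks lay slightly below the interior of the chromosomes, at 0.03 and 0.07 over 96401 bins, and above the outermost 5 Mb. Near-identical centromeric repeats can exchange reads, so values of single clusters are less certain than their sum.

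**Figure D5:**
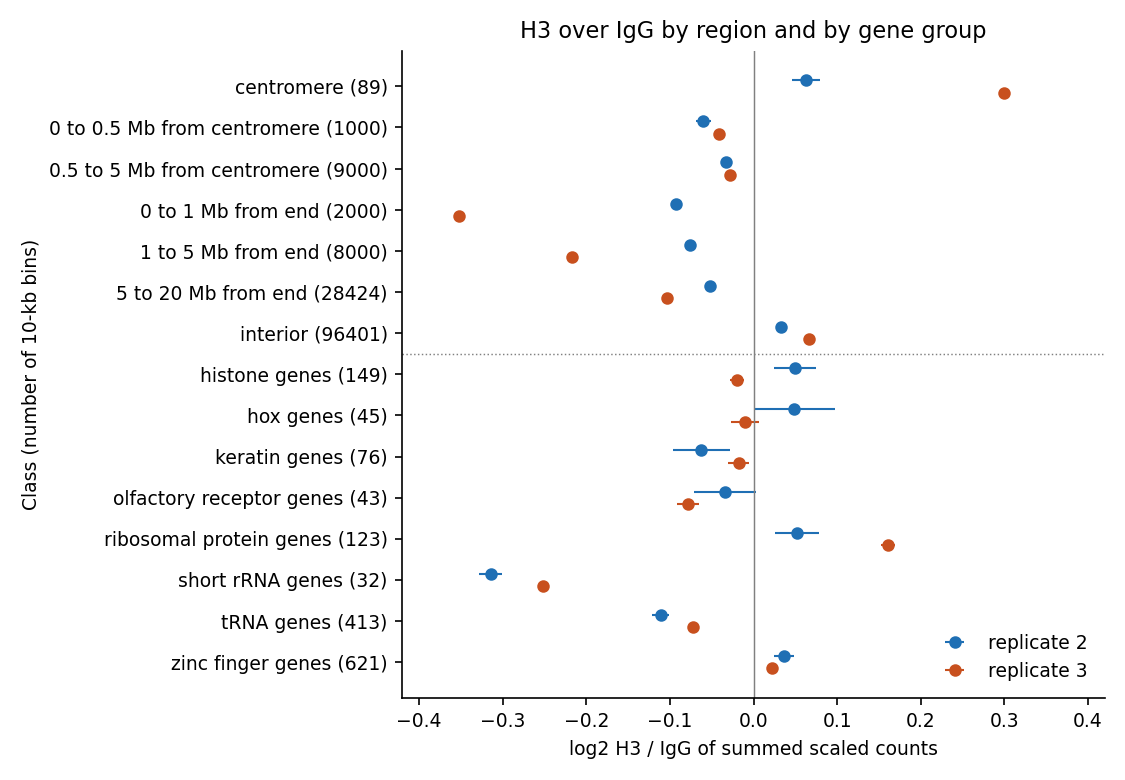
log2 H3 over IgG of summed scaled counts for 7 region classes (above the dotted line) and 8 gene groups, with the number of 10-kb bins in brackets; points are replicate pairs 2 and 3 and bars the counting error. The centromere clusters are at 0.06 and 0.30, the outermost 1 Mb at -0.09 and -0.35, ribosomal protein genes at 0.05 and 0.16, and short rRNA genes at -0.31 and -0.25.

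Gene groups were formed by symbol or gene type, and none of their bins was called after adjustment; their counts are thus at an unadjusted p under 0.05, to be read against 2.29% higher and 2.55% lower over all bins, whose median log2 fold change was 0.02. Ribosomal protein genes, which encode the protein part of the ribosome and are active in growing cells, had 9 of 123 bins higher and 2 lower, with a median of 0.14. Summed over their bins H3 was at 6.83 and 7.47 CPM in replicates 2 and 3 and IgG at 6.59 and 6.68, so H3 was above IgG in both pairs. Of the 123 bins 12 lie within 5 Mb of an end. In the interior of the chromosomes 3.06% of bins were higher and 0.97% lower, with a median of 0.07. The log2 sums of pairs 2 and 3 were 0.03 and 0.07 in the interior, and 0.05 and 0.16 for these genes. The bin with the highest value overlaps *rps19*, with H3 at 5.34 and 6.0 CPM and IgG at 1.97 and 4.29, the former from 8 counts (log2 fold change 0.69, SE 0.25, edgeR adjusted p = 0.796). The lowest overlaps *rps27*, with H3 at 6.86 and 5.82 CPM and IgG at 10.4 and 8.37 (-0.55), and it lies 3.68 Mb from an end.

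Short rRNA genes are the 395 rRNA genes of 116 to 121 bp in the annotation, and 30 of their 32 bins lie within 5 Mb of a chromosome end. Of the 32 bins 0 were higher and 12 lower (37.5%), with a median log2 fold change of -0.25. Of all bins tested in the outermost 1 Mb 19.4% were lower, with a median of -0.23. From 1 to 5 Mb the share was 10.5% and the median -0.17. As sums of log2 H3 over IgG, the outermost 1 Mb had -0.09 in pair 2 and -0.35 in pair 3. From 1 to 5 Mb the sums were -0.08 and -0.22. The 32 bins had -0.31 and -0.25, and the part that goes with the place of these genes was not tested. H3 was at 76.5 and 74.3 CPM per bin in replicates 2 and 3, IgG at 95.2 and 88.5, and input at 83.4 and 85.2. H3 was below IgG and below input in both replicates, whereas in the outermost 1 Mb as a whole H3 of replicate 2 was above input. Bins of extreme input, over 3 times the median or under the inverse of that, were then left out. The 15 remaining bins had log2 H3 over IgG of -0.09 in pair 2 and -0.21 in pair 3, against -0.31 and -0.25 over all 32. Under the same limits the outermost 1 Mb had -0.09 and -0.30, and bins from 1 to 5 Mb had -0.07 and -0.21. The largest array, 161 genes at chr5:434341-476958, had log2 H3 over IgG of -0.35 in pair 2 and -0.23 in pair 3. On chromosome 2, 95 genes in 8 bins had -0.16 and -0.35, on chromosome 6, 69 genes in 10 bins had -0.32 and -0.21, and on chromosomes 8 and 10, 22 genes each had -0.30 and -0.32, and -0.21 and -0.31. The 19 genes of chromosome 9 had -0.11 and -0.31. Chromosome 7 differed in pair 2, with 7 genes in 2 bins at 0.07 and -0.26. The lowest bin holds LOC116408992, at -0.79 with only 4 counts of IgG in replicate 2. These arrays are repeats at which reads can be placed in any copy.

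Genes for transfer RNA, which bring amino acids to the ribosome, had 7 of 413 bins higher and 20 lower and were at -0.11 and -0.07 in the sums of pairs 2 and 3. Their bins hold 2366 genes and a median input of 1.43 times that of all bins. In the 343 bins without extreme input the sums were closer to 0, at -0.01 and -0.03. The highest bin overlaps a trnag-gcc gene, a tRNA for glycine, at 0.62, and the lowest a trnar-ccg gene, a tRNA for arginine, at -0.55, 1.05 Mb from an end of chromosome 10. Olfactory receptor genes, which encode odorant receptors, had 0 of 43 bins higher and 1 lower, with sums of -0.03 and -0.08. They ran from -0.64 at *or5l1*, 4.61 Mb from an end, to 0.40 at *or5i1*.

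The other groups lay near the median of all bins or differed in sign between the pairs. Zinc finger genes, which encode DNA-binding proteins, had 21 of 621 bins higher and 12 lower, with sums of 0.04 and 0.02, the latter below the shift of 0.03 that TMM scaling brings in pair 3, and ran from -0.52 at *znf268* to 0.74 at *znf536*. Hox genes, which pattern the body axis, had 1 of 45 bins higher and 1 lower, with sums of 0.05 and -0.01 and values from -0.39 at *hoxb3* to 0.49 at *hoxa9*. Keratin genes, which encode intermediate filaments of epithelia, had 3 of 76 higher and 1 lower, with sums of -0.06 and -0.02 and values from -0.42 at *krt70* to 0.49 at *krt23*. Histone genes had 3 of 148 tested bins higher and 0 lower, with 0.05 and -0.02, but 121 of their 149 bins belong to the single long annotation of h2ac14 near an end of chromosome 9, where the lowest bin was at -0.39. Among them the bin of *h2az1*, which encodes the variant histone H2A.Z, was the highest, with H3 at 4.89 and 6.49 CPM and IgG at 3.46 and 4.32 (log2 fold change 0.56, edgeR adjusted p = 0.970).

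Bins with 0 genes or 1 gene were close to 0, and the sums over bins dense in genes were lower in H3, less so without bins of extreme input. The 53694 bins without a gene had log2 H3 over IgG of -0.00087 in pair 2 and -0.0090 in pair 3, and the 80860 bins with 1 gene had 0.0065 and 0.013. The 1285 bins with 3 or more genes had -0.11 and -0.10, and they include the rRNA and tRNA arrays. Without extreme input 1093 of these bins remained, at -0.02 and -0.03. Among 10 equal classes of input, the second lowest was at 0.05 and 0.09, and the one with the most input at -0.05 and -0.12. By chromosome the sums were lowest in both pairs on chromosome 10, the shortest, at -0.03 and -0.06, followed by chromosome 8 at -0.01 and -0.04. Only 1242 of the 5242 bins of chromosome 10 lie over 20 Mb from an end, against 17745 of 21745 on chromosome 1. From 5 to 20 Mb chromosome 10 was the highest in both pairs, at -0.03 and -0.05. Over 20 Mb away it was the lowest, at -0.01 and 0.03. Chromosome 1, the longest, was highest in pair 3, at 0.01 and 0.03, and chromosome 9 in pair 2, at 0.02 and 0.02. Without bins of extreme input chromosome 9 turned below 0, at -0.02 and -0.02, and chromosome 8 came to -0.00075 and -0.0030. Chromosome 10 was then at -0.03 and -0.06, and chromosome 1 at 0.01 and 0.04.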

How the data were processed

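To make the deposited counts, the authors trimmed read pairs with Trimmomatic (v0.39), mapped them to the unmasked v10 genome with minimap2 (v2.17-r941), sorted them with SAMtools (v1.9) and counted reads of any mapping quality per 10-kb bin with deepTools (v3.3.0). Removal of duplicate reads is not given in the sources used here. Library size was the total on the 10 chromosomes, after the study's methods. Chromosome numbers were set by matching the last bin of a sequence with the last gene in the RefSeq table of UCB_Xtro_10.0, to within 182731 bp. No genome sequence was used here.

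A bin was tested if 2 of the 4 libraries or more had 10 counts or more. The test was the quasi-likelihood test of edgeR (4.0.16, in R 4.3.3; robust fit), with replicate number as a block and Benjamini-Hochberg adjustment. Standard errors were derived from the F statistic and the fold change. With 4 libraries and the block, the variance was pooled almost wholly across bins or windows. The median total degrees of freedom were 144710 at 10 kb, 136 at 100 kb and 1448 at 1 Mb. The SE and p of a single bin or window thus do not measure the spread of its own 2 pairs. Counts were also summed over 100 kb and 1 Mb. The pairing comes from the deposited design text, in which each replicate has its own controls. Deviations from the group means of libraries with the same number correlated at 0.04 across 10-kb bins, 0.18 across 100-kb and 0.50 across 1-Mb windows. With 2 replicates this cannot tell which library of a kind deviates, so it does not test the pairing. At 1 Mb the libraries that varied most against input, IgG replicate 2 and H3 replicate 3, have different numbers. Summed ratios were computed per pair in Python (3.11.15, numpy 2.4.6, pandas 2.3.3), and figures drawn with matplotlib (3.10.9). Centromere clusters are bins with Cenp-a at least 5 times input over 3 replicates, joined up to 200 kb apart. The edgeR fit was tested on data simulated with a common dispersion. There it recovered 50 of 50 10-kb bins changed 4-fold, and 31 of 46 1-Mb windows changed 1.1-fold. It also called 9 unchanged bins at 10 kb, 10 unchanged windows at 100 kb and 8 at 1 Mb.

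Bins were named by rule: up to 8 joined called groups per direction, up to 5 smallest p-values where fewer than 3 were called, the 5 highest and 5 lowest called 1-Mb windows, the 10 centromere clusters and the highest and lowest bin of each gene group. Groups, lists and rules were chosen with earlier results of these data known. No gene matched the vomeronasal receptor group. Counting errors cover the sampling of reads only. Alternatives included no replicate block, TMM factors, DESeq2 (1.42.0) with its own size factors, 6 libraries with input, other filters and leaving out each library.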

Additional observations from a re-analysis of the deposited data

How the results depend on the processing

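The ratios of regions, as means of both pairs, and those of windows and bins kept their direction under every alternative run for them. The number of calls did not keep its size. Values close to 0, those of most single chromosomes, of some input and gene content classes the medians over bins of the histone, keratin and olfactory receptor genes and the sums of the histone and hox genes, changed sign under at least 1 alternative. In 10-kb bins 2 were called higher and 9 lower. There the fit without the replicate block called 0 and 0, TMM factors 2 and 15, DESeq2 6 and 120, and 6 libraries with input 0 and 0 (3870 and 4006 at an unadjusted p under 0.05 by edgeR). Asking for at least 2-fold or at least 5-fold left 0 and 0. Leaving out 1 library at a time, without the block since no residual degrees of freedom remain with it, gave 0 to 849 higher and 0 to 453 lower (110 lower without H3 replicate 2). Other filters and library sizes left both counts at 2 and 9. In 100-kb windows, 162 higher and 395 lower became 0 and 0 without the block (556 and 646 at an unadjusted p under 0.05), 39 and 337 with TMM factors, 4 and 43 with DESeq2 and 7 and 30 with 6 libraries, and leaving out 1 library gave 0 to 111 and 0 to 552 (102 lower without IgG replicate 3). In 1-Mb windows, 175 and 210 became 2 and 14 without the block, 0 and 0 with TMM factors, 121 and 325 with DESeq2 and 60 and 127 with 6 libraries, and leaving out 1 library gave 0 to 383 and 0 to 276. The cause was not tested. TMM factors lowered log2 H3 over IgG by less than the gradient, by 0.01 in replicate 2 and 0.03 in replicate 3.

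The flanks of the centromere clusters were the regions whose value moved by more than the spread of the pairs. Within 0.5 Mb the mean of both pairs was -0.05, the median over bins -0.029 and the value with TMM factors -0.071. From 0.5 to 5 Mb it was -0.03, against -0.00090 as a median, -0.015 without bins of extreme input and -0.051 with TMM factors. By pair this median was -0.0045 in pair 2 and 0.0027 in pair 3, so its sign differed between the pairs. The agreement of both pairs rose from 0.12 in 10-kb bins to 0.35 over 100 kb and 0.69 over 1 Mb by Pearson's r, and from 0.12 to 0.36 and 0.71 by Spearman's rho. With 24 counts in its median bin, IgG replicate 2 limits what single 10-kb bins can show, and the 2 pairs cannot separate antibody from library.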

Other observations

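A gene-free stretch of very high input lies on chromosome 9 at chr9:55524420-55854419, 33 bins with a median input of 36.6 times that of all bins, and it was picked out after its values were seen. H3 was at 253.3 and 269.9 CPM per bin in replicates 2 and 3, IgG at 206.3 and 219.0, and input at 199.7 and 196.4. Log2 H3 over IgG was 0.30 in both pairs, so H3 was above IgG and input in each replicate. Without adjustment 22 of its 33 bins (66.7%) had more H3 at p under 0.05 and 0 had less. Over all bins tested the shares were 2.29% and 2.55%. The 1-Mb window around it had the highest fitted log2 fold change of all 1448 windows, 0.29 (SE 0.27), and was not called (edgeR adjusted p = 0.399).

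The 137 bins on unplaced sequences hold 0.0676% and 0.0567% of the counts of H3 replicates 2 and 3. Of 102 tested, 0 had more H3 and 7 had less at p under 0.05 before adjustment (6.86% lower, against 2.55% of all bins tested), and the sums were at 0.02 in pair 2 and -0.21 in pair 3. Of the 12 unplaced sequences with at least 5 bins, the longest, with 8 bins, was at 0.11 and -0.46, one with 6 bins at 0.06 and -0.47, and one with 5 bins at -0.55 and -0.20. The others held too few counts of IgG replicate 2 to read a value in pair 2, or had values within 0.25 of 0 in both pairs.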
